A study of Homo sapiens with 12 samples.

Results

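KMT9 is a heterodimer of KMT9α, the product of N6AMT1, and KMT9β, the product of TRMT112. The genes described are N6AMT1, TRMT112, the genes of 6 further methyltransferases that bind TRMT112 (TRMT11, THUMPD3, ALKBH8, BUD23, METTL5 and THUMPD2) and ETF1, which encodes a substrate of KMT9α. They were picked by symbol, as 9 of the 23064 gene symbols in the count tables of the series, and where a symbol had several transcripts the one with the most counts was read. The choice of genes rests on what these proteins are known to bind and on no measured value, though earlier results of these data were known. The choice of transcript rests on the counts.

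RNAseq was performed on CAL-29 and 5637, established human bladder carcinoma cell lines, harvested at day 3 after transfection with an siRNA against KMT9α or with the control siRNA siCtrl. There were 4 groups of 3 libraries, and all cells were labelled wild type in genotype. CAL-29 cells received 50 nM siRNA with RNAiMAX and 5637 cells 90 nM with DharmaFECT 3, so line, dose and reagent cannot be told apart. No label says that the libraries of a group came from separate cultures, so the p-values measure only the spread between these libraries, and with siCtrl as the sole control siRNA an effect of the siRNA apart from N6AMT1 cannot be told apart from an effect of less KMT9α.

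The sample labels do not name the siRNA, and the count tables call it si270. Per the methods and results that describe the RNAseq it is siKMT9α#1. Searched in the genome, the target of siKMT9α#1 starts at base 270 of the 642 bases of the N6AMT1 coding sequence, the same number as in that name. It lies in exon 3 of 8 on the minus strand of chromosome 21, at chr21:30254500-30254524 in GRCh37, the assembly also called hg19, and is shown because all comparisons rest on this siRNA. The capitals mark the bases opposite positions 2 to 8, the seed, of the antisense strand of the siRNA.

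N6AMT1 target of siKMT9α#1: acgctgtaacaaagttcACATTCAa

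Of 62296 gene names with annotated transcripts, N6AMT1 alone held all 25 bases. Both protein-coding transcripts of N6AMT1 with a row in the tables, NM_013240 and NM_182749, were counted from largely the same reads. NM_013240 had 280, 261.5 and 255.5 estimated counts with siCtrl in CAL-29 cells and NM_182749 had 270.5, 255 and 247.5, so the tables do not separate them.

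TRMT112 is a small protein without known catalytic activity of its own. It binds a set of methyltransferases and keeps them stable and active, and these enzymes act on very different substrates. KMT9α methylates a lysine of histone H4 and also a glutamine of the translation termination factor eRF1, the product of ETF1. TRMT11 and THUMPD3 methylate guanosines of tRNA, ALKBH8 modifies the wobble uridine of tRNAs that include the selenocysteine tRNA, BUD23 and METTL5 methylate the rRNA of the small ribosomal subunit, and THUMPD2 methylates a spliceosomal snRNA.

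Library totals over the rows read, 1 transcript per symbol, were between 24479348.5 and 35151256.5 estimated counts. Pairs of replicates were further apart than counting error alone allows, at a chi-square of 2.31 to 4.17 per degree of freedom for all pairs except those with CAL-29 siCtrl replicate 1, which gave 8.68 and 13.1. All 9 epithelial and urothelial markers examined were above 1 CPM (counts scaled to library size with TMM) in all groups. Their summed level was lower with siKMT9α#1, at 6515 to 6679 CPM against 14888 to 15777 in CAL-29 cells and at 4849 to 4884 against 6877 to 7237 in 5637 cells. The 8 markers of immune, endothelial and other cells summed to between 1.21 and 8.07 CPM in all libraries, with the highest sums in the CAL-29 libraries with siKMT9α#1, and whether either marker list had a part in the results was not tested.

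N6AMT1 RNA fell to 25.1% of its control level in CAL-29 cells and to 21.5% in 5637 cells, while the RNA of TRMT112, of 5 of the 6 other methyltransferases and of ETF1 rose by 11.5% to 60.2%, and METTL5 did not pass the test in either line. The counts were 7 members up and 1 down in each line at a Benjamini-Hochberg adjusted p below 0.05 in edgeR's quasi-likelihood test. The background in CAL-29 cells was 34.3% of all genes tested up and 35.3% down, and in 5637 cells 35% up and 35.6% down, so a call in itself sets no member apart. The same 7 members rose in both lines and the same 1 fell, where 22.5% of the genes tested in both lines rose in each and 21.7% fell in each. The member that fell is N6AMT1, the target of the siRNA. At the threshold of an unadjusted p below 1e-06, CAL-29 cells had 2 members up and 1 down, against 14.9% and 15% of all genes, and 5637 cells had 3 up and 1 down, against 17.9% and 17.5%. The 3 in CAL-29 cells became 6 with no filter on low counts, total count scaling, DESeq2, the likelihood ratio test, the replicate block or the joint model, and 5 without CAL-29 siCtrl replicate 1. In bulk RNA, fewer cells that express a gene and less of its RNA per cell cannot be told apart.

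**Figure D1:**
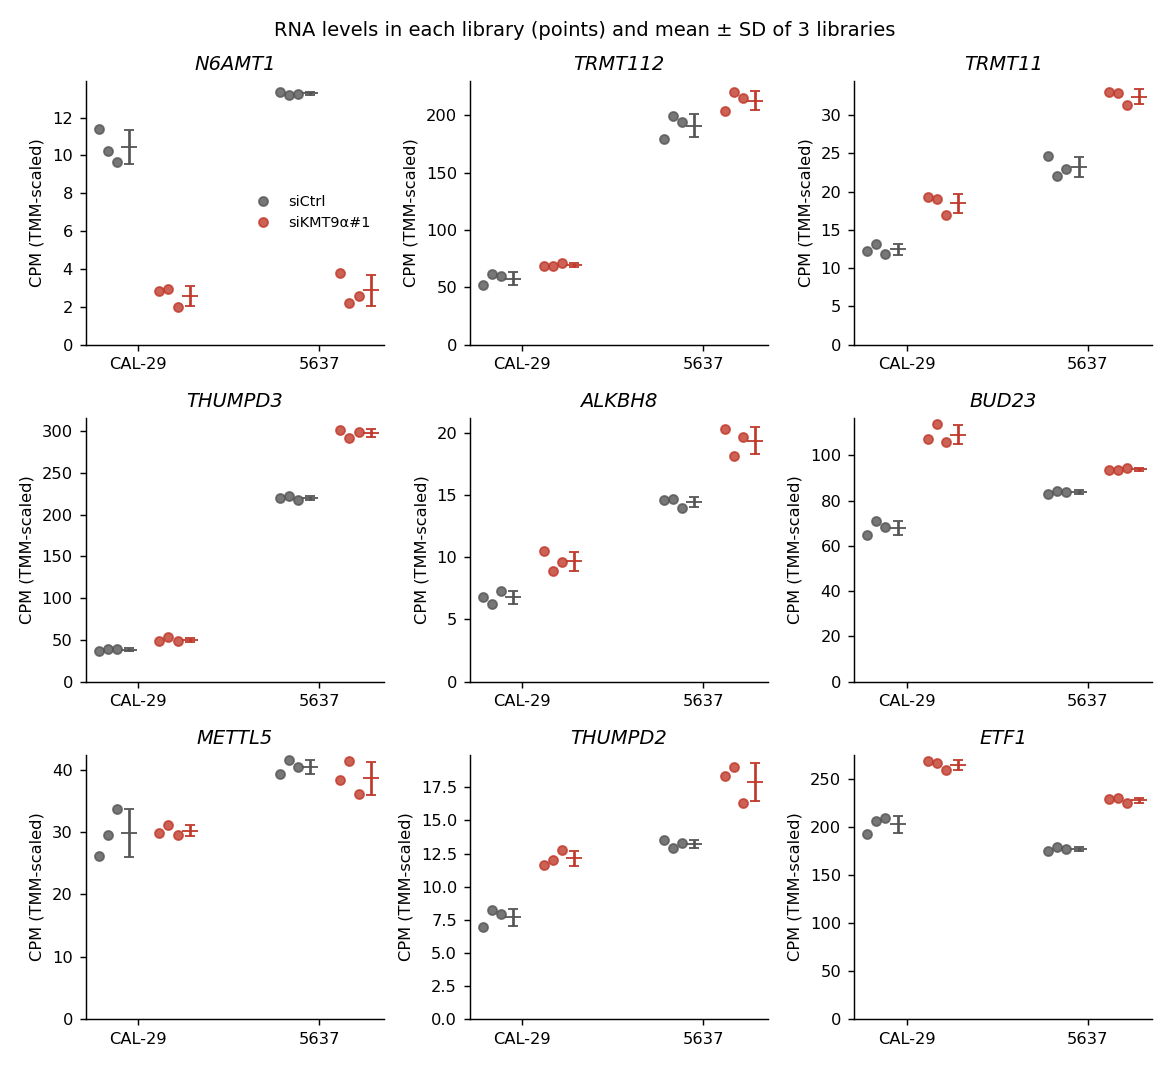
RNA level (CPM, TMM-scaled within each line) of the 9 genes in each of the 12 libraries, in gray for siCtrl and in red for siKMT9α#1, with the mean and SD of 3 libraries beside the points. All siKMT9α#1 points lie below the siCtrl points of the same line for N6AMT1, they overlap for METTL5, and they lie above for the 7 other genes.

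N6AMT1 (chr21:30244513-30257693, minus strand) had 11.4, 10.2 and 9.67 CPM in the CAL-29 libraries with siCtrl and 2.82, 2.93 and 1.99 CPM with siKMT9α#1. In 5637 cells the levels were 13.4, 13.2 and 13.3 CPM with siCtrl and 3.78, 2.22 and 2.59 CPM with siKMT9α#1. The groups were far apart in both lines, and the libraries with siKMT9α#1 in 5637 cells were more spread (SD 0.819, n = 3) than those with siCtrl (SD 0.0851, n = 3). The siCtrl SD is smaller than counting error alone would give at 436, 411 and 473 counts, so it is no reliable measure of spread. The log2 fold change was -1.997 ± 0.146 (SE) in CAL-29 cells, with an adjusted p of 1.38e-10, and -2.22 ± 0.12 in 5637 cells, with an adjusted p of 2.06e-15. The levels that remained were well above 3 counts, which correspond to 0.0853 to 0.123 CPM in these libraries.

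TRMT112 (chr11:64083932-64085031, minus strand), the shared partner and KMT9β subunit, rose little. The levels in CAL-29 cells were 51.7, 61.8 and 59.5 CPM with siCtrl and 68.5, 69.0 and 71.3 CPM with siKMT9α#1. In 5637 cells they were 180, 199 and 194 CPM and 204, 220 and 215 CPM. All libraries with siKMT9α#1 were above those with siCtrl, in 5637 cells by only a few CPM at the nearest pair. The log2 fold change was 0.27 ± 0.06 (SE, adjusted p = 4.77e-04) in CAL-29 cells and 0.16 ± 0.04 (adjusted p = 6.16e-04) in 5637 cells, the smallest increase of a member in CAL-29 cells and, beside BUD23, in 5637 cells. Of the exon bases of TRMT112, 35% are also exon bases of ESRRA on the other strand, and the strand setting of the counting is not given in the sources used here. ESRRA, an orphan nuclear receptor, rose in both lines, from 71.3 ± 2.49 to 103 ± 2.49 CPM (SD, n = 3) in CAL-29 cells and from 167 ± 10.6 to 257 ± 11.6 CPM in 5637 cells, and its part in the TRMT112 counts was not tested.

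All 3 genes of tRNA-modifying partners rose in both lines. TRMT11 (chr6:126307625-126524963, plus strand) was at 12.2, 13.2 and 11.9 CPM with siCtrl and 19.3, 19.0 and 16.98 CPM with siKMT9α#1 among the CAL-29 libraries (log2 fold change 0.57 ± 0.09, SE, adjusted p = 7.34e-06). It was at 24.7, 22.0 and 22.9 CPM with siCtrl and 33.0, 32.9 and 31.3 CPM with siKMT9α#1 in 5637 cells, a change of 0.48 ± 0.06 (adjusted p = 2.36e-08). The increase was thus 48.6% and 39.5%, and no library with siKMT9α#1 reached down to the controls. THUMPD3 (chr3:9404655-9428475, plus strand) was at 37.2, 39.7 and 38.7 CPM and at 48.9, 53.2 and 48.3 CPM among the CAL-29 libraries (log2 fold change 0.38 ± 0.06, SE, adjusted p = 8.08e-06). In 5637 cells it was at 219, 222 and 218 CPM and at 301, 292 and 299 CPM, a change of 0.43 ± 0.03 (adjusted p = 6.95e-13). THUMPD3 separated cleanly in both lines, with a control level in 5637 cells several times that in CAL-29 cells. Exons on the other strand, of THUMPD3-AS1 and of the gene with the identifier ENSG00000254485, cover 21.4% of its exon bases. THUMPD3-AS1 fell in CAL-29 cells, from 20.9 ± 1.74 to 16.5 ± 0.318 CPM (SD, n = 3, adjusted p = 8.87e-04), and rose in 5637 cells, from 19.4 ± 2.31 to 22.6 ± 2.15 CPM (adjusted p = 0.0146), where the groups overlapped.

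ALKBH8 (chr11:107373453-107436468, minus strand), which completes the modification of wobble uridines begun by the Elongator complex, was the least abundant of these 3 genes. It was at 6.81, 6.21 and 7.29 CPM with siCtrl and at 10.5, 8.91 and 9.58 CPM with siKMT9α#1 among the CAL-29 libraries (log2 fold change 0.51 ± 0.11, SE, adjusted p = 5.29e-04). The levels in 5637 cells were 14.6, 14.6 and 13.9 CPM and 20.3, 18.1 and 19.6 CPM, a change of 0.43 ± 0.07 (adjusted p = 3.97e-06). The groups did not overlap in either line.

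The rRNA methyltransferases parted. BUD23 (chr7:73097927-73112542, plus strand), which methylates a guanosine of the small subunit rRNA, rose from 64.8, 71.0 and 68.5 CPM to 107, 114 and 106 CPM in CAL-29 cells, the largest increase of a member there (log2 fold change 0.68 ± 0.05 (SE), adjusted p = 2.14e-10). In 5637 cells it rose from 82.9, 84.5 and 84.0 CPM to 93.4, 93.7 and 94.4 CPM, a change of 0.16 ± 0.04 (adjusted p = 2.54e-04). The groups were apart in both lines, by much more in CAL-29 cells. BUD23 has 4 rows in the tables that share most of their reads, and the row with the most counts was NR_037776 for CAL-29 and NM_001202560 for 5637.

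METTL5 (chr2:170666591-170681441, minus strand), which methylates an adenosine of the same rRNA, was at 26.1, 29.5 and 33.7 CPM with siCtrl and at 29.9, 31.2 and 29.5 CPM with siKMT9α#1 in CAL-29 cells. The 5637 values were 39.3, 41.5 and 40.4 CPM and 38.3, 41.4 and 36.1 CPM in the same order. The groups overlapped in both lines, and the log2 fold changes were 0.02 (95% confidence interval -0.14 to 0.18, adjusted p = 0.839) and -0.07 (-0.18 to 0.04, adjusted p = 0.252). Under total count scaling the latter passed (-0.12, adjusted p = 0.0432). These intervals include 0 and leave out an increase of the size measured for TRMT11, ALKBH8 or THUMPD2 in the same line. On the other strand, exons of SSB cover 10.2% of the exon bases of METTL5, and SSB, which encodes the La protein, rose in CAL-29 cells from 95.01 ± 7.63 to 117 ± 6.97 CPM (SD, n = 3) and fell in 5637 cells from 108 ± 0.780 to 86.9 ± 0.918 CPM, and the part of these reads in the METTL5 counts was not tested.

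THUMPD2 (chr2:39963200-40006407, minus strand), the snRNA methyltransferase, was at 6.97, 8.21 and 7.90 CPM with siCtrl and at 11.6, 12.02 and 12.8 CPM with siKMT9α#1 among the CAL-29 libraries (log2 fold change 0.65 ± 0.10, SE, adjusted p = 1.22e-05). In 5637 cells the levels were 13.5, 12.9 and 13.3 CPM and 18.4, 19.0 and 16.3 CPM, a change of 0.43 ± 0.07 (adjusted p = 8.57e-06). The groups did not overlap, and the increase was 57.4% and 34.9%.

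ETF1 (chr5:137841784-137878925, minus strand), which encodes eRF1, the factor that reads stop codons and a substrate of KMT9α, was abundant and rose by a like amount in both lines. It was at 193, 207 and 209 CPM with siCtrl and at 269, 267 and 259 CPM with siKMT9α#1 in CAL-29 cells. The 5637 values were 175, 179 and 177 CPM and 229, 230 and 225 CPM in the same order. The gap between the groups was wide against the spread within them, and ETF1 was past the unadjusted p of 1e-06 in both lines, as was N6AMT1. The log2 fold change was 0.39 ± 0.05 (SE, adjusted p = 3.73e-07) in CAL-29 cells and 0.36 ± 0.03 (adjusted p = 4.71e-11) in 5637 cells.

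The median log2 fold change of the 8 members other than N6AMT1 was 0.45 for CAL-29 and 0.40 for 5637, against -0.02 and -0.01 over all genes tested. All libraries with siKMT9α#1 were above all libraries with siCtrl for 7 members and below for 1 member in each line, where 35.6% and 36.7% of all genes did so for CAL-29 and 35.8% and 36.5% for 5637.

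**Figure D2:**
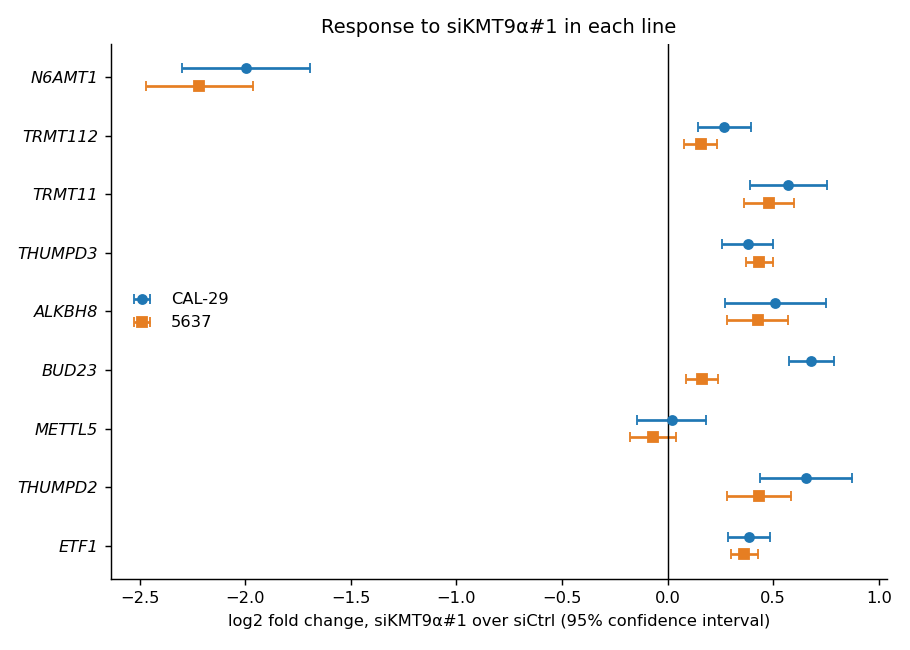
Log2 fold change of siKMT9α#1 over siCtrl for each gene, with 95% confidence intervals from edgeR, as circles for CAL-29 cells and squares for 5637 cells. The intervals of the lines are apart for BUD23 (0.57 to 0.79 and 0.09 to 0.24), and those of METTL5 include 0.

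The interaction of line and siRNA was tested to ask whether a response differed between the lines. It passed for BUD23 alone among the 9 members, with a log2 fold change lower by 0.53 ± 0.06 (SE, adjusted p = 3.39e-08) in 5637 cells, where 50.3% of the 15411 genes tested passed. For N6AMT1 the difference of 5637 minus CAL-29 was -0.24, with a 95% confidence interval of -0.67 to 0.19. THUMPD2 (-0.24, interval -0.49 to 0.02) and TRMT112 (-0.13, interval -0.28 to 0.02) missed the threshold with intervals that lie mostly below 0. TRMT11 (-0.11, interval -0.32 to 0.10), ALKBH8 (-0.10, interval -0.36 to 0.16) and METTL5 (-0.10, interval -0.30 to 0.10) had intervals that reached further above 0. Among the members that did not pass, the narrowest intervals were those of ETF1 (-0.04, interval -0.15 to 0.08) and THUMPD3 (0.04, interval -0.09 to 0.17). Against a difference of 1.5-fold in edgeR's glmTreat the BUD23 difference did not pass (adjusted p = 1), and as its estimate is below 1.5-fold it could not pass. The change of line comes with a change of dose and reagent.

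With siCtrl, all 9 members differed between the lines at an adjusted p below 0.05 in edgeR, as 85.3% of all genes did. THUMPD3 stood at a 5.98-fold higher level in 5637 cells (log2 ratio 2.58 ± 0.05 (SE), adjusted p = 4.42e-28) and TRMT112 at a 3.47-fold higher level (1.80 ± 0.05, adjusted p = 1.06e-22). ALKBH8 (2.23-fold), TRMT11 (1.96-fold), THUMPD2 (1.80-fold), METTL5 (1.42-fold), N6AMT1 (1.33-fold) and BUD23 (1.28-fold) were higher in 5637 cells by less. ETF1 was the sole member lower in 5637 cells, at 0.916 times the CAL-29 level (adjusted p = 0.00462). The differences of THUMPD3 and TRMT112 between the lines were thus far larger than their changes with siKMT9α#1.

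Levels of different genes were compared as FPKM, CPM of the joint scaling per kilobase of the GENCODE MANE Select transcript, an approximation since the RefSeq lengths behind the tables were not used here. TRMT112 ranked first with siCtrl in both lines, at 69.1 ± 6.47 FPKM in CAL-29 cells and 240 ± 12.2 FPKM in 5637 cells (SD, n = 3). N6AMT1 was near the bottom, at 2.10 ± 0.174 FPKM in CAL-29 cells, above ALKBH8 alone (1.62 ± 0.129 FPKM), and at 2.80 ± 0.0236 FPKM in 5637 cells, below all others. In CAL-29 cells the order from the top with siCtrl was TRMT112, BUD23, ETF1, METTL5, THUMPD3, TRMT11, THUMPD2, N6AMT1 and ALKBH8. The ranges of BUD23 (55.2 ± 2.61 FPKM) and ETF1 (53.6 ± 2.46 FPKM) overlapped, and those of all other neighbours in the order did not. In 5637 cells THUMPD3 ranked 3 from the top with siCtrl, at 59.8 ± 0.581 FPKM between BUD23 and ETF1, and no neighbours overlapped.

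With siKMT9α#1, N6AMT1 was last in both lines, at 0.525 ± 0.104 FPKM in CAL-29 cells and 0.605 ± 0.173 FPKM in 5637 cells (SD, n = 3). BUD23 passed TRMT112 in CAL-29 cells, at 89.5 ± 3.46 against 84.4 ± 1.89 FPKM, and their ranges did not overlap. In 5637 cells THUMPD3 (80.9 ± 1.41 FPKM) and BUD23 (79.5 ± 0.637 FPKM) overlapped. TRMT112 stayed far above all partners there, at 268 ± 10.6 FPKM.

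**Figure D3:**
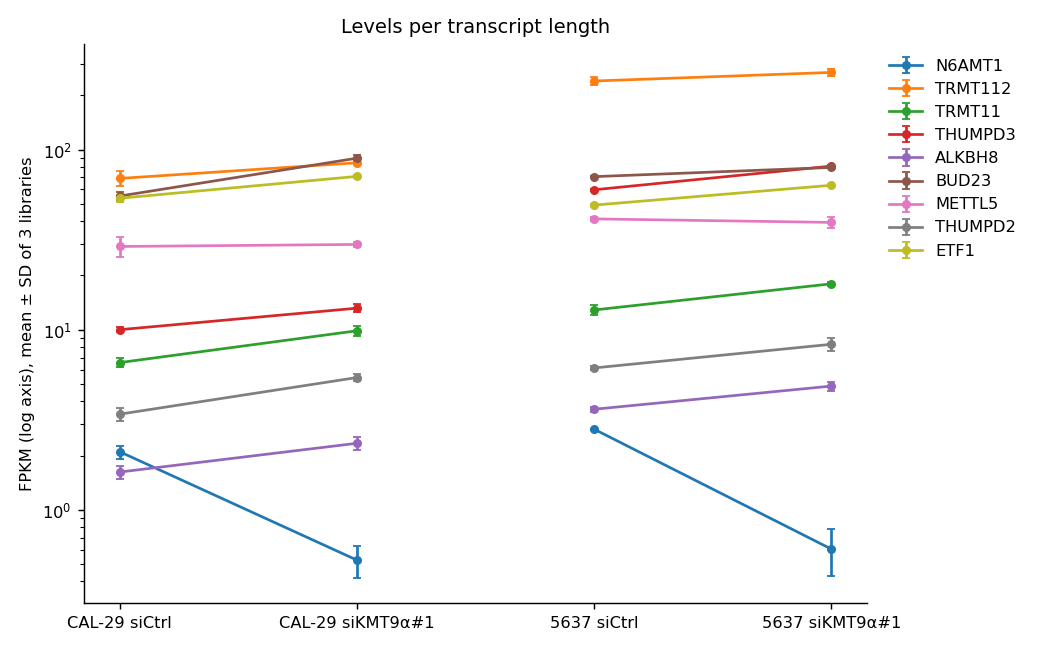
Level per transcript length (FPKM, log axis) of the 9 genes in the 4 groups, as the mean and SD of 3 libraries, with a line joining siCtrl and siKMT9α#1 of the same cell line. TRMT112 lies at 240 FPKM in 5637 siCtrl and 69.1 FPKM in CAL-29 siCtrl, and N6AMT1 drops to the bottom with siKMT9α#1.

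Since the partners share TRMT112, its RNA was set against theirs. The ratio of TRMT112 to the summed FPKM of the 7 methyltransferases was 0.614, 0.669 and 0.638 with siCtrl and 0.558, 0.535 and 0.591 with siKMT9α#1 in CAL-29 cells. The 5637 values were 1.15, 1.26 and 1.24 with siCtrl and 1.10, 1.19 and 1.18 with siKMT9α#1. The groups were apart in CAL-29 cells and overlapped in 5637 cells, and the exact 2-sided permutation test over libraries gave p = 0.1 and p = 0.3, where 0.1 is the smallest value that 3 libraries against 3 allow. The summed RNA of the partners thus was above that of TRMT112 per length in CAL-29 cells and below it in 5637 cells, with either siRNA. The relation in 5637 cells rests on the lengths used. There THUMPD3 alone had more CPM than TRMT112, at 220 against 191 with siCtrl and 297 against 213 with siKMT9α#1. The exon overlap of TRMT112 with ESRRA was not taken out of the ratio.

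N6AMT1 made up a small share of the partner RNA even before the knockdown. Its share of the summed FPKM of the 7 methyltransferases was 2.27%, 1.86% and 1.74% with siCtrl in CAL-29 cells and 0.386%, 0.381% and 0.277% with siKMT9α#1. In 5637 cells it was 1.44%, 1.40% and 1.42% with siCtrl and 0.344%, 0.201% and 0.239% with siKMT9α#1. The groups did not overlap (exact permutation test, 2-sided, p = 0.1 in each line, the smallest possible). As N6AMT1 is the target of the siRNA, a fall of its share was built into the design, so this test decides nothing. The sum of the 6 other methyltransferases went from 106 ± 6.35 to 150 ± 5.14 FPKM in CAL-29 cells and from 194 ± 1.18 to 231 ± 2.15 FPKM in 5637 cells (SD, n = 3), with no overlap and p = 0.1 in each line by the same exact test. Most of the rise of the sum came from 1 gene in each line. This was BUD23 in CAL-29 cells, from 55.2 to 89.5 FPKM, and THUMPD3 in 5637 cells, from 59.8 to 80.9 FPKM.

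Genes of neighbouring pathways were read from lists, and their counts stand here beside those of all genes given above. Among 12 translation termination and release factors, which act beside eRF1 in the cytosol or in mitochondria, 7 rose and 4 fell for CAL-29, as against 7 rose and 3 fell for 5637, with medians of 0.37 and 0.31 on the log2 scale. ABCE1, the ATPase that splits ribosomes after termination, rose by 1.05 ± 0.05 (SE, adjusted p = 1.49e-13) in CAL-29 cells and by 0.59 ± 0.04 (adjusted p = 1.15e-14) in 5637 cells. GSPT2, a form of the eRF1 partner eRF3, rose by 0.51 ± 0.14 and 0.53 ± 0.11. HEMK1, which encodes the mitochondrial relative of KMT9α that methylates mitochondrial release factors, fell from 21.7 to 11.1 CPM in CAL-29 cells and from 13.5 to 10.9 CPM in 5637 cells, with log2 fold changes of -0.97 ± 0.10 and -0.31 ± 0.08. MTRF1, a mitochondrial release factor, changed by -0.52 ± 0.15 and -0.33 ± 0.12 (adjusted p = 0.0173), and the latter call was lost in DESeq2 (adjusted p = 0.0530) and without any of 3 libraries, 5637 siCtrl replicate 1 (adjusted p = 0.0700), siCtrl replicate 3 (0.0553) and siKMT9a replicate 2 (0.0539).

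Of the 18 genes of the wobble uridine and selenocysteine tRNA pathway, in which ALKBH8 acts, 7 rose and 3 fell for CAL-29, as against 6 rose and 4 fell for 5637, with medians of 0.09 and 0.00 on the log2 scale. CTU2, a subunit of the wobble uridine thiolase, rose by 0.71 ± 0.09 and 0.53 ± 0.07 (SE). DPH3, which supplies electrons to Elongator and to diphthamide synthesis, changed by -0.46 ± 0.08 and -0.73 ± 0.07. TRNAU1AP, a protein associated with the selenocysteine tRNA, changed by -0.56 ± 0.10 and -0.21 ± 0.06, with adjusted p of 3.09e-05 and 0.00229.

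Among 31 other tRNA methyltransferase genes, 15 rose and 8 fell for CAL-29, as against 16 rose and 11 fell for 5637, with medians of 0.13 and 0.17 on the log2 scale. NSUN2, a cytosine methyltransferase of tRNA, rose the most, from 87.0 to 227 CPM and from 94.7 to 215 CPM, with log2 fold changes of 1.38 ± 0.05 (SE, adjusted p = 7.74e-16) and 1.18 ± 0.03 (adjusted p = 3.67e-22). TRMT61A, the catalytic subunit of a tRNA adenosine methyltransferase, rose by 0.90 ± 0.06 and 1.09 ± 0.05. METTL8 changed by -0.75 ± 0.09 and -0.81 ± 0.07. TRMT9B, a relative of the methyltransferase domain of ALKBH8 with only 2.41 and 1.65 CPM in the controls, changed by -0.82 ± 0.22 and -1.55 ± 0.28, with adjusted p of 0.00249 and 1.42e-05.

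Among 25 other rRNA and snRNA modification enzymes and their cofactors, 19 rose and 3 fell for CAL-29, as against 17 rose and 4 fell for 5637, with medians of 0.40 and 0.21 on the log2 scale. NAT10, an RNA cytidine acetyltransferase, rose by 0.83 ± 0.06 (SE, adjusted p = 2.94e-11) and 0.58 ± 0.04 (adjusted p = 3.54e-14). MRM2, a mitochondrial rRNA methyltransferase, rose by 0.78 ± 0.07 and 0.66 ± 0.05. ZCCHC4, which methylates the rRNA of the large subunit, changed by -0.56 ± 0.13 and -1.05 ± 0.10. SNU13, a core protein of box C/D snoRNPs, changed by -0.18 ± 0.06 (adjusted p = 0.0112) and -0.41 ± 0.04, and the first call was lost under total count scaling (adjusted p = 0.141) and without CAL-29 siCtrl replicate 2 (0.0613), siKMT9a replicate 1 (0.0715) or siKMT9a replicate 2 (0.0577).

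Of 17 genes of seven-beta-strand protein methyltransferases, the fold that KMT9α has, 16 passed the filter on low counts. In CAL-29 cells 11 rose and 3 fell, and in 5637 cells 7 rose and 4 fell, with medians of 0.36 and 0.01 on the log2 scale. EEF1AKMT2, which methylates the elongation factor eEF1A, rose by 0.75 ± 0.08 and 0.89 ± 0.09 (SE). CAMKMT, which methylates calmodulin, rose by 0.76 ± 0.18 and 0.63 ± 0.12. METTL21A, which methylates Hsp70 proteins, fell from 22.2 to 8.94 CPM and from 12.5 to 5.70 CPM, with log2 fold changes of -1.32 ± 0.09 (adjusted p = 9.29e-11) and -1.13 ± 0.10 (adjusted p = 2.32e-11). METTL18, a histidine methyltransferase, changed by -0.57 ± 0.13 and -0.87 ± 0.11.

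**Figure D4:**
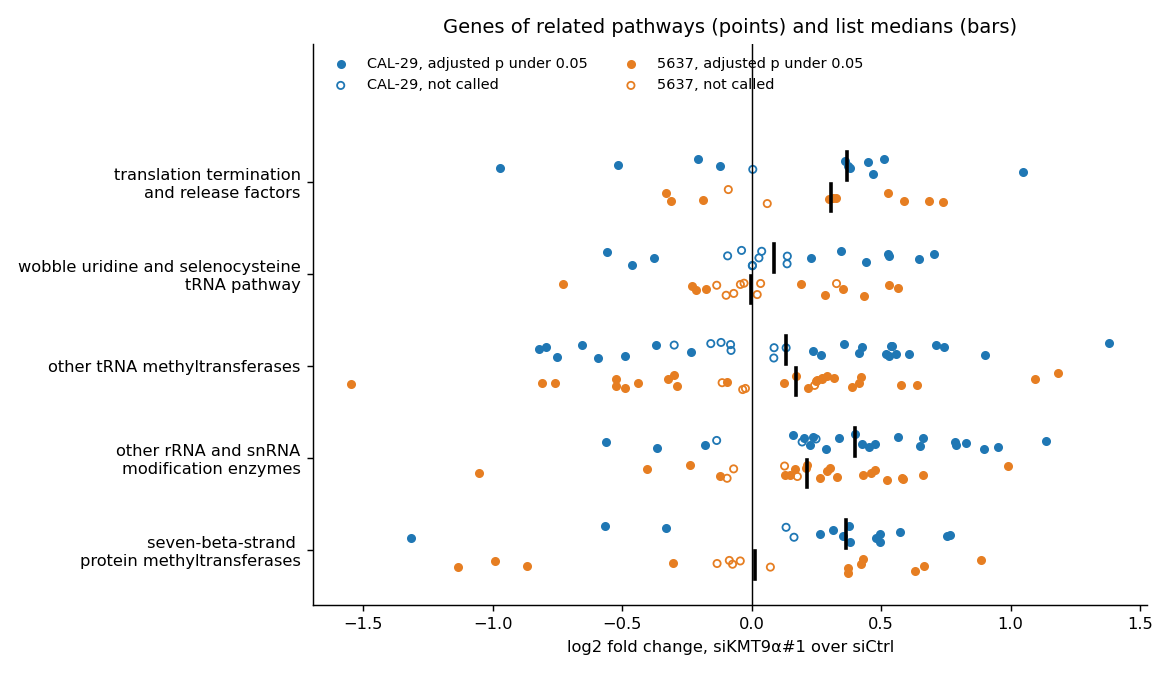
Log2 fold change of siKMT9α#1 over siCtrl for the genes of 5 related lists in CAL-29 cells (blue) and 5637 cells (orange), filled where the adjusted p was below 0.05 and open otherwise, with list medians as black bars. The highest median is that of the rRNA and snRNA modification enzymes in CAL-29 cells (0.40), and all lists hold genes on both sides of 0.

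Genes whose RNA followed that of N6AMT1 were sought by the Pearson correlation of log2(CPM + 0.5), centred within each line, over the 12 libraries, among 11908 other genes with a mean of at least 50 counts in each line. ATRX (r = 0.993), RETREG3 (0.991), CGN (0.991), PRRC2B (0.991) and CMTR2 (0.991) ranked highest. With a contrast of knockdown against control in all libraries, 1566 genes had an r of at least 0.9 and 1628 an r of at most -0.9, so a high r describes genes that fell in both lines with little spread. ATRX, a chromatin remodeler, went from 155 to 82.1 CPM in CAL-29 cells and from 76.2 to 35.8 CPM in 5637 cells. CGN, which encodes the tight junction protein cingulin, went from 209 to 75.7 CPM and from 54.2 to 15.4 CPM. Among the members, the correlation with N6AMT1 was -0.97 for ETF1, -0.96 for THUMPD3, -0.93 for THUMPD2 and TRMT11, -0.91 for ALKBH8, -0.85 for TRMT112, -0.80 for BUD23 and 0.03 for METTL5.

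The members were also searched for the seed match of the siRNA outside N6AMT1, since short matches in a 3′ UTR can lower an RNA in the manner of a microRNA. The letters ACATTCA occur in the longest annotated 3′ UTR of ALKBH8 and METTL5 and of none of the other members, and in 15.3% of the 12400 genes tested in both lines with a 3′ UTR of at least 50 bases. The match to the other strand of the siRNA, TACAGCG, occurs in no member and in 1.80% of these genes. Both sites are shown with their flanks, in transcript direction and with the 7 letters in capitals.

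ALKBH8: ttcattaggagACATTCAaatgtctcctg

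METTL5: aacagaacaatACATTCAaagaaatctca

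The ALKBH8 stretch shown lies at chr11:107375214-107375242 on the minus strand, and its 7 letters start at base 153 of a 3′ UTR of 1931 bases in the MANE Select transcript. The METTL5 stretch shown lies at chr2:170668423-170668451 on the minus strand, and its 7 letters start at base 383 of a 3′ UTR of 499 bases. That 3′ UTR belongs to another transcript, and the MANE Select 3′ UTR of METTL5, of 63 bases, does not hold the site. ALKBH8 RNA rose in both lines and METTL5 RNA did not pass the test in either. With the shortest annotated 3′ UTR of each gene, no member held the site, against 6.77% of the genes.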

How the data were processed

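RNAseq of CAL-29 and 5637 cells was analysed, with 3 libraries for each siRNA and line. Per the labels and the study's methods, alignment was to hg19 with STAR, counting with HOMER at its defaults and testing with edgeR. The deposited tables hold estimated counts for 37400 RefSeq transcripts without normalization, in steps that are not all whole numbers. They also hold the authors' own p-values, adjusted p-values and log2 fold changes, which were not used. Whether counting used the strand is not given in the sources used here. Groups and replicate numbers came from the sample titles, and the sample descriptions give some libraries another replicate number.

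Each symbol was represented by its transcript of highest count, with counts rounded to whole numbers (0.5 upward). In edgeR 4.0.16 (R 4.3.3), with TMM scaling and filterByExpr, 14682 genes (CAL-29) and 14367 genes (5637) were tested by line with the quasi-likelihood F test, and 15411 in a joint model of line, siRNA and their interaction. Adjusted p-values are Benjamini-Hochberg values over all genes tested, and SEs are the log2 fold change over the square root of F. Total counts over the transcripts kept were at least 24479348.5 per library. The spread between libraries, with a biological coefficient of variation of 5.08% and 3.34%, and not depth thus limits the precision of well-expressed genes. The floor of 3 counts covers counting error only. The fits were also run on simulated counts, in which far fewer genes changed than were called here. That run does not test the scaling under changes as broad as these.

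The members, gene lists and tests were chosen with earlier results of these data known. The genes named were the 9 members, the 5 genes most correlated with N6AMT1 and, from each list, the 2 up and the 2 down in both lines with the largest smaller log2 fold change. Among these, 1 gene is counted in its list but not reported here. Alternatives were other filters, scalings and tests (DESeq2 1.42.0, edgeR's likelihood ratio test), every transcript as a row, the replicate number as a block, a joint model, CPM for the ratios, other 3′ UTRs and each library left out. Positions, lengths and sequences came from GENCODE on GRCh37.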

Additional observations from a re-analysis of the deposited data

Results flagged for a closer look

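The response of BUD23 differed between the lines by the interaction test over all 12 libraries in edgeR, with a log2 fold change in 5637 cells minus that in CAL-29 cells of -0.53 (95% confidence interval -0.66 to -0.40, adjusted p = 3.39e-08). The increase of 60.2% in CAL-29 cells compares with 11.98% for 5637, and all 6 libraries with siKMT9α#1 were above their controls. This difference was past the threshold with each library left out in turn and under each scaling, between -0.65 and -0.50. It did not pass against 1.5-fold in glmTreat, and could not, as its estimate is below 1.5-fold. Dose and reagent change with the line, and 50.3% of all genes passed the same test, so nothing sets BUD23 apart from other genes by this call.

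Among the named genes of the lists, 8 differed between the lines by the same test. The other named genes, GSPT2, MTRF1, CTU2, TRMT61A, TRMT9B, METTL8, MRM2, EEF1AKMT2, CAMKMT, METTL21A and METTL18, did not pass. Of all 15411 genes tested 50.3% passed, so the call in itself sets none of these genes apart. The difference was -0.48 for ABCE1 (adjusted p = 1.25e-07), -0.51 for ZCCHC4 (0.0109), -0.28 for DPH3 (0.0233), -0.26 for NAT10 (9.77e-04), -0.24 for SNU13 (0.00661) and -0.21 for NSUN2 (0.00235). It was 0.65 for HEMK1 (2.06e-04) and 0.33 for TRNAU1AP (0.0159). The genes were named only if called in the same direction in both lines, so that these are differences in size follows from the selection. Other list genes could differ in direction, such as PELO, with log2 fold changes of -0.21 in CAL-29 cells and 0.31 in 5637 cells. Against a difference of 1.5-fold in glmTreat none of the 8 passed, with an adjusted p of 0.650 for HEMK1 (unadjusted p = 0.139, the lowest of the 8) and 1 for the others. Only HEMK1, at 1.56-fold, had an estimate above 1.5-fold, and a smaller estimate cannot pass this test. Under total count scaling the call of TRNAU1AP was lost (adjusted p = 0.113). It was also lost without CAL-29 siCtrl replicate 2 (0.0841) or siKMT9a replicate 1 (0.0744), and that of DPH3 without CAL-29 siCtrl replicate 1 (0.0691), 5637 siCtrl replicate 2 (0.0600) or 5637 siKMT9a replicate 2 (0.0804).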

How the results depend on the processing

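The counts of 8 members changed in CAL-29 cells and 9 that differ between the lines with siCtrl were the same under all alternatives run. The 8 changed in 5637 cells became 9 under total count scaling, where METTL5 passed (-0.12, adjusted p = 0.0432), and were 8 under the other alternatives. No member that was called turned its direction. The number of members past 1e-06 in CAL-29 cells, 3, became 6 with no filter on low counts, total count scaling, DESeq2, the likelihood ratio test, the replicate block and the joint model, and ranged from 2 to 5 with 1 library left out, with 5 without CAL-29 siCtrl replicate 1. The replicate block changed no other count by over 1.5 times. Over all genes it took the number past 1e-06 from 4396 to 6194 in CAL-29 cells and from 5085 to 5226 in 5637 cells. Same-numbered libraries correlated by 0.21, 0.05 and 0.06 for CAL-29 and by 0.23, 0.01 and -0.03 for 5637, with 3 of 6 matching their own number best. On these values the numbers, which differ between titles and descriptions for some libraries, were not taken as pairs. The number whose response differs between the lines, 1, was 4 under total count scaling, where TRMT112, THUMPD2 and ETF1 joined BUD23, 1 to 2 with a library left out, with TRMT112 joining without CAL-29 siCtrl replicate 2, and 0 against 1.5-fold. No member had an estimated difference of 1.5-fold, so none could pass against that bound. Total count scaling moved the median of all genes to 0.06 (CAL-29) and -0.06 (5637). It also gave 2 in place of 4 release factors down in CAL-29 cells and 7 in place of 4 wobble uridine genes down in 5637 cells. The change of TRMT112 against its partners in 5637 cells, -0.07 on the log2 scale, was -0.14 from CPM without length and -0.11 to -0.04 with a library left out, and in CAL-29 cells, -0.19, it was -0.23 to -0.16. That of the N6AMT1 share was -2.58 to -2.34 in CAL-29 cells and -2.70 to -2.31 in 5637 cells. Members with a seed match, 2 in the longest 3′ UTR, were 0 in the shortest and 1 in the MANE Select 3′ UTR, the latter chosen after the data were seen. The cause of these shifts was not tested.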

Other observations

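The levels of genes near each member were compared between the lines with siCtrl, a comparison chosen after the data were seen. Around THUMPD3, which was higher in 5637 cells by 2.58 on the log2 scale, the 34 other tested genes within 1 Mb had a median log2 ratio of 5637 over CAL-29 of 2.34, with 27 of them above 1, and the 797 other genes of chromosome 3 had a median of -0.19. Around TRMT112, higher by 1.80, the 53 genes within 1 Mb had a median of 1.53, with 36 above 1, against 0.60 for the 764 other genes of chromosome 11. The neighbours of the 7 other members had medians between -0.44 (METTL5) and 0.86 (N6AMT1, 6 genes). ALKBH8, on the same chromosome as TRMT112 and higher by 1.16, had 10 neighbours with a median of 0.38. DNA copy number was not analysed here.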
